A study of Mus musculus with 11 samples.

Results

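The genes described here encode the enzymes that make, balance and remove deoxynucleotides. They were chosen by name, as the genes for ribonucleotide reductase (Rrm1, Rrm2, Rrm2b), for the thymidylate branch (Tyms, Tk1, Dut, Dctd, Dtymk) and for the dNTP hydrolase (Samhd1). The choice was made with earlier results of these data known. All 9 were found among the 37991 Ensembl genes of the deposited table, and all 9 passed the filter on low counts in every comparison. RNA-Seq of hematopoietic stem cells (HSC) from the bone marrow of 8-week-old C57BL/6 mice was available for 3 genotypes. The control (Ctrl, n = 4) is labelled wild type and described in the methods as littermate control. NA10hd HSC (n = 4), labelled NA transgenic, carry the NUP98-HOXA10HD fusion with a 3xFlag tag and an IRES-Tdtomato reporter at the ROSA26 locus, locked by a loxp-stop-loxp cassette that Vav-Cre removes. NV HSC (n = 3), labelled NrasG12D transgenic, carry an LSL NrasG12D/+ allele activated by the same Vav-Cre. Vav-Cre acts throughout the blood system, so that both alleles are active in other blood cells too, and the genotype of the control mice behind these libraries is not stated beyond wild type and littermate, while control mice of the study's other assays carried the unrecombined NA10hd allele. HSC were sorted as Lin-CD48-c-Kit+Sca1+CD135-CD150+ cells, and each library was made from amplified polyA RNA of 1000 cells. The study calls the libraries biological replicates, but the labels do not say which aliquots came from separate animals, so that p-values measure the spread between aliquots, which may in part be technical.

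Ribonucleotide reductase reduces ribonucleotides to deoxynucleotides and is the rate-limiting step of their de novo synthesis. Its large subunit, encoded by Rrm1, holds the active and allosteric sites, and it pairs with a small subunit, either Rrm2, which is made in S phase and degraded in mitosis, or Rrm2b, a p53-inducible form that serves repair and mitochondrial DNA in resting cells. Thymidylate is made from dUMP by thymidylate synthase (Tyms) with a folate cofactor, and dUMP in turn comes from dCMP through the deaminase Dctd or from dUTP through the dUTPase Dut, while thymidine kinase 1 (Tk1) salvages thymidine and thymidylate kinase (Dtymk) serves both routes. Samhd1 hydrolyses dNTPs and keeps their pools low outside S phase. Most HSC of adult bone marrow are quiescent, and several of these genes are known targets of E2F factors at the start of S phase.

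Promoter sequences are shown for the genes on which the results turn. These are Rrm1, called in each comparison, and Tk1, with the largest called fold changes. The others are Rrm2, the partner that varied within genotypes, and Samhd1, uncalled but highest in the NA10hd libraries. The sequences are the 250 bases before the start in the RefSeq table of build GRCm38.p6. That is not the build of the counts (NCBIM37). They are printed 5' to 3' on the gene's strand with CCAAT in capitals. The windows are chr7:102441445-102441694 (+ strand) for Rrm1, chr12:24708004-24708253 (+ strand) for Rrm2, chr11:117826015-117826264 (- strand) for Tk1 and chr2:157135097-157135346 (- strand) for Samhd1.
Rrm1: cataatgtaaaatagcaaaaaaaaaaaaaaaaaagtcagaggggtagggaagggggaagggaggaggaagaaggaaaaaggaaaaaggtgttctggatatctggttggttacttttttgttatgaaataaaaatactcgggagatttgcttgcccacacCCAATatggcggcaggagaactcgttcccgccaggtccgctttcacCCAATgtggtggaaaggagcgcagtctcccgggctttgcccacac
Rrm2: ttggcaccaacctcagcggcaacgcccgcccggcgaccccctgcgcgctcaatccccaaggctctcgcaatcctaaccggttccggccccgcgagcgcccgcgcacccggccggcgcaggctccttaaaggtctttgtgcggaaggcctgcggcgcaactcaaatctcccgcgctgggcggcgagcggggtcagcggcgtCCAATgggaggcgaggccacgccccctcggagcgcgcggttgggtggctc
Tk1: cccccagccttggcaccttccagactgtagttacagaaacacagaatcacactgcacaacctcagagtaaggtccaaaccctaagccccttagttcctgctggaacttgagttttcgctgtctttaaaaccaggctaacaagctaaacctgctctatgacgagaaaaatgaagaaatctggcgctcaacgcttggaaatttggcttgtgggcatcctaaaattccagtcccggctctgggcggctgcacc
Samhd1: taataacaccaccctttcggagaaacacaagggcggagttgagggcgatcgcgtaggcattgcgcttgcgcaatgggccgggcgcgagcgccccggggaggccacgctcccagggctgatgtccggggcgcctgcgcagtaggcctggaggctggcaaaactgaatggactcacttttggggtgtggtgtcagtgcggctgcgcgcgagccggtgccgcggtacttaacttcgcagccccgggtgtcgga
Windows of 300 bases, 250 before to 50 after the start, were found for 8 of the 9 genes; Rrm2b was the other. The word CCAAT, searched on both strands, was in the windows of 4 of the 8 genes, against 41.06% of the 27025 genes of the table. It lay at -91 and -45 from the start of Rrm1 and at -50 from that of Rrm2, while Dctd and Dtymk held the other matches and Tyms, Tk1, Dut and Samhd1 had none. The E2F words TTTCCCGC, TTTGGCGC, TTTCGCGC and TTTGCCGC were in none of the 8 genes' windows (2.6% of all genes), nor was the cell cycle homology word TTTGAA (20.23% of all genes). A match is a run of letters and not a site in use, and the lack of one says only that these letters are not in this window.

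Total counts ranged in Ctrl from 5464815 to 12610189, in NA10hd from 7624638 to 12180230 and in NV from 9981499 to 14283008 per library. The NA10hd libraries stood further from each other than those of the other genotypes, with a median absolute log2 difference from the rest of their group of 0.426 to 0.543, against 0.251 to 0.325 for Ctrl and NV libraries. NA10hd replicate 4 was the furthest, had the fewest detected genes (13859) and was the only library with Xist and without Y-linked counts, whereas 5 libraries had Y-linked counts alone (Ctrl replicates 1 and 4, NA10hd replicates 1 to 3) and 5 had both. Where leaving this library out reversed a value of the 9 genes given here or moved it by over 1.5 times, the value without it is given too. The replicated pairs differed by more than counting noise, and no library was a copy of another.

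In control HSC, the levels per length (CPM per kb of exon, CPM being counts scaled to 1000000 after TMM normalization) put Dut highest at 58.6 ± 10.2 (SD, n = 4), followed by Dtymk at 49.5 ± 2.77, Dctd at 41.4 ± 7.89 and Rrm1 at 40.3 ± 6.42, and the libraries of each of these 4 overlapped with the next. Samhd1 (15.5 ± 1.12) lay below them and above Tyms (9.33 ± 1.01), without overlap to either side. Tyms overlapped with Tk1 (7.35 ± 2.30). The small subunits were lowest, Rrm2b at 3.87 ± 0.469 and Rrm2 at 2.51 ± 1.09 CPM per kb, and their libraries overlapped. The order differed in the mutants. In NA10hd HSC, Dtymk (43.2 ± 7.92) was first and overlapped with Dut (35.5 ± 4.21), Samhd1 (23.1 ± 2.97) lay above Rrm1 (16.8 ± 0.898) without overlap, and Tk1 (3.03 ± 1.14) lay among the small subunits, with Rrm2b at 3.33 ± 0.820 and Rrm2 at 1.89 ± 1.41. In NV HSC, Dut (101.7 ± 10.7) stood above Rrm1 (72.1 ± 6.46) without overlap, Rrm1 overlapped with Dtymk (69.6 ± 3.81), and Tk1 (24.1 ± 2.76) and Tyms (19.8 ± 0.812) both lay above Samhd1 (15.4 ± 1.505). Lengths of the longest transcript in place of all exons moved neighbours in this order, so that Dtymk came before Dut in all 3 genotypes and Tk1 before Tyms in Ctrl HSC, and Samhd1 then stood above Tyms in NV HSC. In NA10hd HSC these lengths put Samhd1 second, above Dut and Dctd, and Tk1 above both small subunits.

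**Figure D1:**
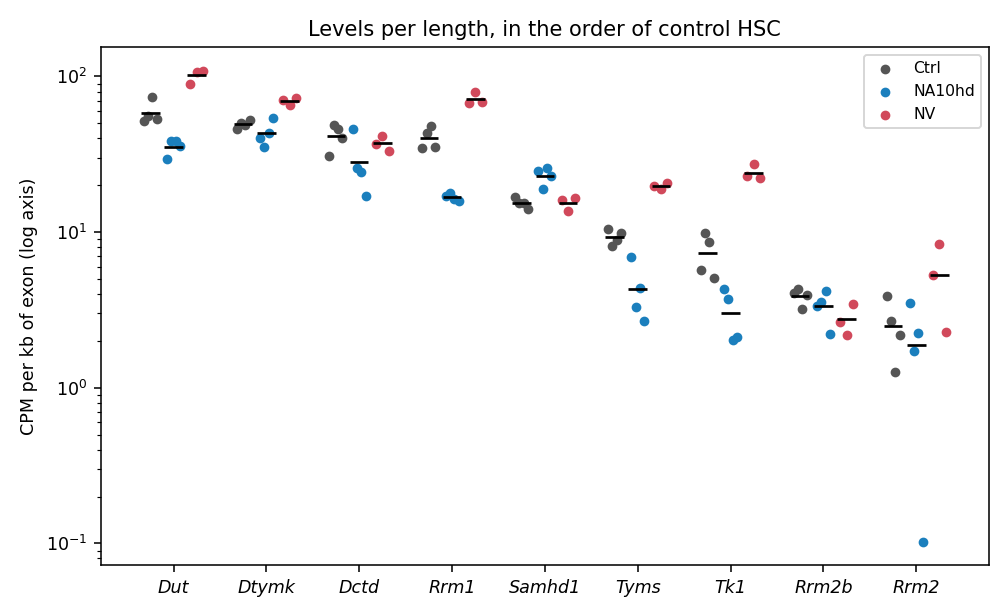
Level of each gene in each library as CPM per kb of exon on a log axis, genes ordered from left to right by their control mean, with bars at the group means (Ctrl and NA10hd n = 4, NV n = 3). Rrm1, Tyms and Tk1 spread apart by genotype while Samhd1 is highest in NA10hd, and the lowest point is Rrm2 in NA10hd replicate 4.

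Each pair of genotypes was compared with the quasi-likelihood test of edgeR over all genes, and a call needed both an adjusted p (Benjamini-Hochberg) below 0.05 and a fold change over 1.5. In NA10hd against Ctrl, 1 of the 9 genes was called lower (Rrm1) and none higher; this was the only gene called of 13060 tested (0.00766% lower, 0% higher), at an unadjusted p under 0.05 there were 4 lower and 1 higher of the 9 (5.26% and 6.62% of all genes). DESeq2 called 4 of the 9 lower in this comparison (Rrm1, Tyms, Tk1, Dut) and none higher, beside 0.603% lower and 0.764% higher of the 11778 genes to which it gave an adjusted p. In counts simulated for this comparison, 20.8% of the DESeq2 calls were false, against 8.53% of the edgeR calls. In NV against Ctrl, 4 of the 9 were called higher (Rrm1, Tyms, Tk1, Dut) and none lower, where 2.55% of 13462 genes were called higher and 2.21% lower; at an unadjusted p under 0.05 there were 6 higher, with Rrm2 and Dtymk, and none lower (9.55% and 9.96% of all genes). Between NA10hd and NV, a comparison that uses no control library, 5 of the 9 were called lower (Rrm1, Tyms, Tk1, Dut, Dtymk) and none higher, where 2.79% of 13461 genes were called lower and 2.30% higher. The median log2 fold change of the 9 genes was -0.55 in NA10hd against Ctrl, 0.79 in NV against Ctrl and -1.49 in NA10hd against NV, beside 0.02, -0.01 and 0.01 over all genes tested. The comparisons with control share the 4 control libraries, so that their values are set side by side and not counted as separate evidence. In these sorted cells, fewer cells of a type and less RNA per cell cannot be told apart.

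**Figure D2:**
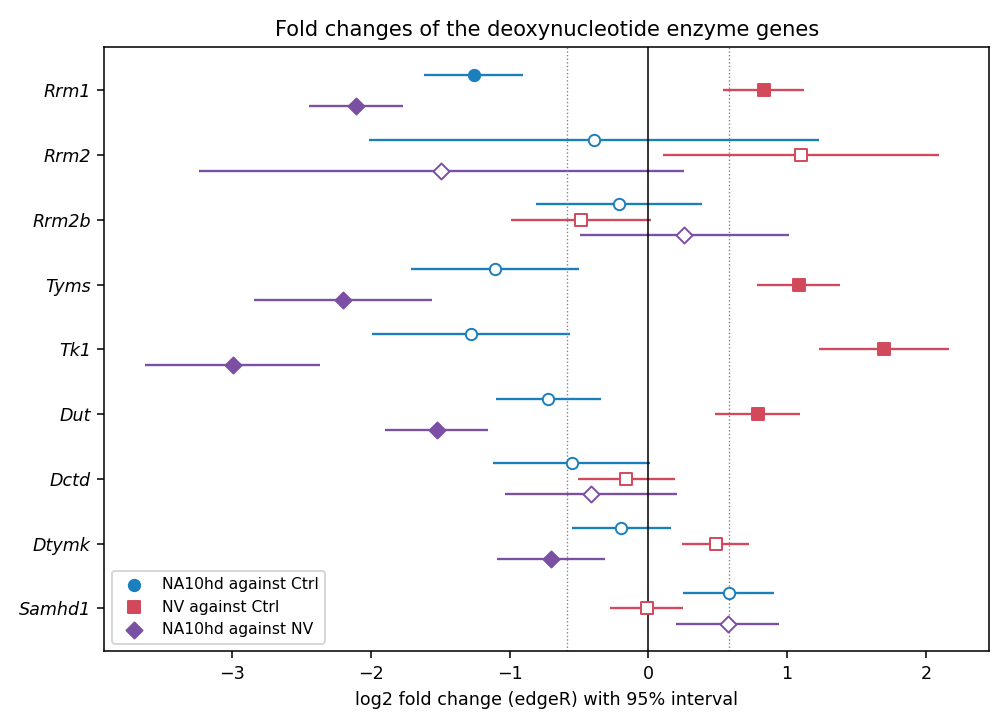
log2 fold change of the 9 genes in the 3 comparisons (edgeR) with 95% intervals from the quasi-likelihood fit; filled symbols passed both thresholds, and dotted lines mark a fold change of 1.5. Rrm1, Tyms, Tk1 and Dut lie left of 0 in NA10hd and right of 0 in NV against Ctrl, while Samhd1 lies at 0.58 in NA10hd and at -0.01 in NV.

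Rrm1 (ENSMUSG00000030978, chr7:109590209-109618285, + strand), the large subunit of ribonucleotide reductase, was the gene with the smallest p of all in NA10hd against Ctrl. Its level was 139.6, 173.2, 191.6 and 140.3 CPM in Ctrl replicates 1 to 4, 68.6, 71.5, 65.0 and 63.6 CPM in NA10hd replicates 1 to 4, and 271.8, 317.9 and 274.6 CPM in NV replicates 1 to 3. Every NA10hd library lay below every control library and every NV library above, and the NA10hd libraries, though the most scattered over all genes, differed little in this gene. Rrm1 fell 2.39-fold in NA10hd HSC (log2 fold change -1.26, SE 0.17, adjusted p = 0.0434) and rose 1.78-fold in NV HSC (log2 fold change 0.83, SE 0.14, adjusted p = 0.00430). Against NV, it was 4.31-fold lower in NA10hd HSC (log2 fold change -2.11, SE 0.15, adjusted p = 0.000128), the second smallest p of the comparison. The call in NA10hd against Ctrl was lost when any library but NA10hd replicate 4 was left out (adjusted p up to 0.222, log2 fold change -1.32 to -1.17; 0.0418 without NA10hd replicate 4), and among the libraries with Y-linked counts alone (log2 fold change -1.03, adjusted p = 0.768). The study named Rrm1 from these same libraries, so its direction is not independent evidence.

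Neither small subunit was called in any comparison. Rrm2 (ENSMUSG00000020649, chr12:25393106-25399011, + strand), the S phase partner, had 10.7, 7.48, 3.51 and 6.05 CPM in Ctrl, 9.71, 4.77, 6.22 and 0.284 CPM in NA10hd, and 14.6, 23.3 and 6.28 CPM in NV libraries. The groups overlapped in all comparisons, since NV replicate 3 and NA10hd replicates 1 to 3 lay within the control range and NA10hd replicate 1 lay above NV replicate 3. NA10hd replicate 4 lay below every other library, with 2 counts where the other NA10hd libraries had 60 to 79. Rrm2 had log2 fold changes of -0.39 in NA10hd against Ctrl (95% interval -2.01 to 1.23), 1.10 in NV against Ctrl (0.11 to 2.10, adjusted p = 0.206) and -1.49 in NA10hd against NV (-3.24 to 0.26). Without NA10hd replicate 4, the first was 0.00. The second was 0.60 without NV replicate 2 and up to 1.46 with another library left out. The intervals over all libraries, at 2 to 344 counts per library, include the fold changes of Rrm1. A difference between the large and the S phase small subunit was not tested.

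Rrm2b (ENSMUSG00000022292, chr15:37853707-37891073, - strand), the p53-inducible small subunit, had 26.1, 27.7, 20.6 and 25.3 CPM in Ctrl, 21.5, 22.8, 27.0 and 14.3 CPM in NA10hd, and 17.1, 14.1 and 22.3 CPM in NV libraries. NV replicates 1 and 2 lay below every control library, and NV replicate 3 lay within the control range. Rrm2b had log2 fold changes of -0.21 (SE 0.28; -0.06 without NA10hd replicate 4 and -0.35 without NA10hd replicate 3) in NA10hd and -0.49 (SE 0.23, adjusted p = 0.275) in NV against Ctrl, and its 95% interval in NV (-0.99 to 0.02) lay below the estimate for Rrm1 (0.83); the difference between the genes was not itself tested. Copies of its transcript bear on the count: at 95% identity or more over at least 400 bases, 3 stretches on chromosome 13 matched it, the longest 2834 bp at 95.6%, and the pseudogene Gm3362 lies inside an intron on the same strand without shared exon bases. How reads with several positions were counted is not given in the sources used here, so the Rrm2b level is uncertain to that extent. Rrm2 had 1 such stretch of 420 bp, also on chromosome 13.

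Because both small subunits are counted in the same library, their ratio needs no scaling between libraries. The log2 ratio of Rrm2 to Rrm2b per length (0.5 count added to each) was -0.06, -0.66, -1.33 and -0.83 in Ctrl, 0.07, -1.03, -0.90 and -4.13 in NA10hd, and 0.99, 1.93 and -0.61 in NV libraries. Rrm2b was thus the more abundant small subunit per length in all 4 control libraries, in 3 of 4 NA10hd libraries and in 1 of 3 NV libraries. By the length of the longest transcript, it was so in all 4 NA10hd libraries, since Rrm2 and Rrm2b then stood at 4.43 and 4.72 CPM per kb in NA10hd replicate 1. The mean was -0.72 ± 0.52 (SD, n = 4) in Ctrl, -1.49 ± 1.82 (n = 4) in NA10hd and 0.77 ± 1.28 (n = 3) in NV. The differences were -0.77 in NA10hd against Ctrl (exact two-sided permutation p = 0.6, smallest possible 0.0286), 1.49 in NV against Ctrl (exact p = 0.114) and -2.27 in NA10hd against NV (exact p = 0.114), where 3 libraries against 4 cannot give a p below 0.0571; adjusted over the 3 tests, the p-values were 0.6, 0.171 and 0.171. Without NA10hd replicate 4, the first difference was 0.10, with its direction reversed, and the third was -1.39. The second was 0.91 without NV replicate 2 and up to 2.18 with another library left out. The large subunit outnumbered both small ones together in each library, with a ratio of Rrm1 to the sum of Rrm2 and Rrm2b per length of 4.41 to 10.7 in Ctrl, 2.51 to 6.83 in NA10hd and 7.50 to 12.0 in NV. The ranges of NA10hd and NV did not overlap, and that of Ctrl overlapped with both. NA10hd replicate 4 alone (6.83) gave the overlap of NA10hd with Ctrl, as the other NA10hd libraries stood at 2.51, 3.40 and 2.52, below the lowest control library.

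Tyms (ENSMUSG00000025747, chr5:30384742-30400157, - strand), which makes thymidylate de novo, had 63.4, 49.7, 53.9 and 60.1 CPM in Ctrl, 42.4, 20.2, 26.5 and 16.3 CPM in NA10hd, and 119.9, 115.9 and 125.7 CPM in NV libraries. The genotypes did not overlap, and the coefficient of variation was 4.10% in NV and 43.6% in NA10hd libraries. Tyms rose 2.12-fold in NV HSC (log2 fold change 1.08, SE 0.14, adjusted p = 0.00133) and was 4.60-fold lower in NA10hd than in NV HSC (adjusted p = 0.00220). Its value in NA10hd against Ctrl was -1.10 (SE 0.28, adjusted p = 0.207), which did not pass, while DESeq2 gave -1.11 (adjusted p = 0.0245). With all 3 genotypes in 1 fit, the call in NV against Ctrl was lost (adjusted p = 0.0576).

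Tk1 (ENSMUSG00000025574, chr11:117676840-117687406, - strand), the thymidine kinase of the salvage route, had the largest fold changes of the 9 genes in NV against Ctrl and in NA10hd against NV. It had 29.8, 51.5, 44.9 and 26.5 CPM in Ctrl, 22.4, 19.2, 10.5 and 10.9 CPM in NA10hd, and 118.6, 141.6 and 115.2 CPM in NV libraries. All NV libraries lay above the highest control library by more than the control spread, and all NA10hd libraries lay below the lowest. Tk1 rose 3.24-fold in NV HSC (log2 fold change 1.70, SE 0.22, adjusted p = 0.00133) and was 7.97-fold lower in NA10hd than in NV HSC (log2 fold change -3.00, SE 0.29, adjusted p = 0.000405), calls that held in each fit with 1 library left out. The value in NA10hd against Ctrl was -1.28 (SE 0.33, adjusted p = 0.207; 0.0251 with DESeq2). Among libraries with Y-linked counts alone it was -0.70, over 1.5 times smaller. A copy of the Tk1 transcript on chromosome 8 (1207 bp at 96.0%, overlapping the pseudogene Gm6091) took at most 2.4% of the counts of Tk1 and Gm6091 together, and Afmid on the opposite strand shares 83 bp of exon and had at most 66 counts; the strand setting of the counting is not given in the sources used here.

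Dut (ENSMUSG00000027203, chr2:125072926-125084344, + strand), which hydrolyses dUTP to dUMP and keeps uracil out of DNA, had 125.3, 133.6, 177.8 and 128.7 CPM in Ctrl, 71.0, 92.5, 92.6 and 85.6 CPM in NA10hd, and 215.4, 258.6 and 261.5 CPM in NV libraries. The genotypes did not overlap, and Ctrl replicate 3 stood apart from the other control libraries on the side of NV. Dut rose 1.73-fold in NV HSC (log2 fold change 0.79, SE 0.14, adjusted p = 0.00777) and was 2.88-fold lower in NA10hd than in NV HSC (adjusted p = 0.000779), and its value in NA10hd against Ctrl was -0.72 (SE 0.18, adjusted p = 0.201; 0.0192 with DESeq2). The call in NV against Ctrl was lost without NV replicate 2 (adjusted p = 0.0501) or NV replicate 3 (adjusted p = 0.0547), and with the control libraries limited to the 2 that, like NV, had both Xist and Y-linked counts (adjusted p = 0.0830).

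Dctd and Dtymk, the other enzymes of the thymidylate branch, differed less. Dtymk (ENSMUSG00000026281, chr1:95689153-95698511, - strand), the kinase of thymidylate, had 121.2, 132.1, 128.8 and 138.7 CPM in Ctrl, 106.1, 92.8, 113.4 and 142.1 CPM in NA10hd, and 185.5, 172.2 and 191.9 CPM in NV libraries. The NV libraries all lay above control, by 1.401-fold (log2 fold change 0.49, SE 0.11, adjusted p = 0.0238), which passed the threshold on p and not that on fold change. Its value in NA10hd against Ctrl was -0.19, and -0.32 without NA10hd replicate 4 or -0.11 without NA10hd replicate 2. Dtymk was called lower in NA10hd than in NV HSC (log2 fold change -0.70, SE 0.18, adjusted p = 0.0451), a call that held without NA10hd replicate 4 (adjusted p = 0.0174) and was lost without any other library (adjusted p 0.0692 to 0.217). Dctd (ENSMUSG00000031562, chr8:49184446-49238587, + strand), the dCMP deaminase, had 104.9, 165.5, 157.0 and 137.1 CPM in Ctrl, 156.0, 87.7, 82.9 and 57.9 CPM in NA10hd, and 126.0, 142.1 and 113.3 CPM in NV libraries. NA10hd replicate 1 lay within the control range and the other 3 below it. The log2 fold change of Dctd was -0.55 in NA10hd against Ctrl (-0.37 without NA10hd replicate 4 and -0.88 without NA10hd replicate 1) and -0.41 in NA10hd against NV (-0.23 and -0.74). Among libraries with Y-linked counts alone it was -0.16 in NA10hd against Ctrl. Dctd was not called in any comparison, and its 95% interval in NV against Ctrl (log2 fold change -0.51 to 0.19) lay below the estimates for Tyms (1.08), Tk1 (1.70) and Dut (0.79). The differences between these genes were not tested.

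Samhd1 (ENSMUSG00000027639, chr2:156923265-156961001, - strand), the enzyme that removes dNTPs, had 154.4, 141.5, 141.6 and 129.4 CPM in Ctrl, 225.7, 173.5, 235.5 and 209.6 CPM in NA10hd, and 146.1, 125.7 and 151.9 CPM in NV libraries. It was the only one of the 9 genes whose NA10hd libraries all lay above both other genotypes, while NV and control libraries covered the same range. The difference did not pass after adjustment: the log2 fold change was 0.58 (SE 0.15, adjusted p = 0.210) in NA10hd against Ctrl and 0.57 (SE 0.17, adjusted p = 0.0799) in NA10hd against NV. In NV against Ctrl it was -0.01 with a 95% interval of -0.27 to 0.25, which did not reach a fold change of 1.5 in either direction. With DESeq2, Samhd1 in NA10hd against Ctrl passed the threshold on p (adjusted p = 0.0300) and at 0.58 not that on fold change. Samhd1 passed in NA10hd against NV with DESeq2 (adjusted p = 0.0146) and without NA10hd replicate 2 (adjusted p = 0.0498). Of the DESeq2 calls in counts simulated for NA10hd against NV, 26.4% were false, against 4.63% with edgeR. Over the 9 genes, the libraries of NA10hd and Ctrl did not overlap for 4 that were lower (Rrm1, Tyms, Tk1, Dut; 3.94% of all genes) and for Samhd1, which was higher (3.89% of all genes), those of NV and Ctrl for 5 that were higher (the same 4 and Dtymk; 9.49%) and none that was lower (9.37%), and those of NA10hd and NV for 5 that were lower (11.3%) and for Samhd1 (9.63%).

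**Figure D3:**
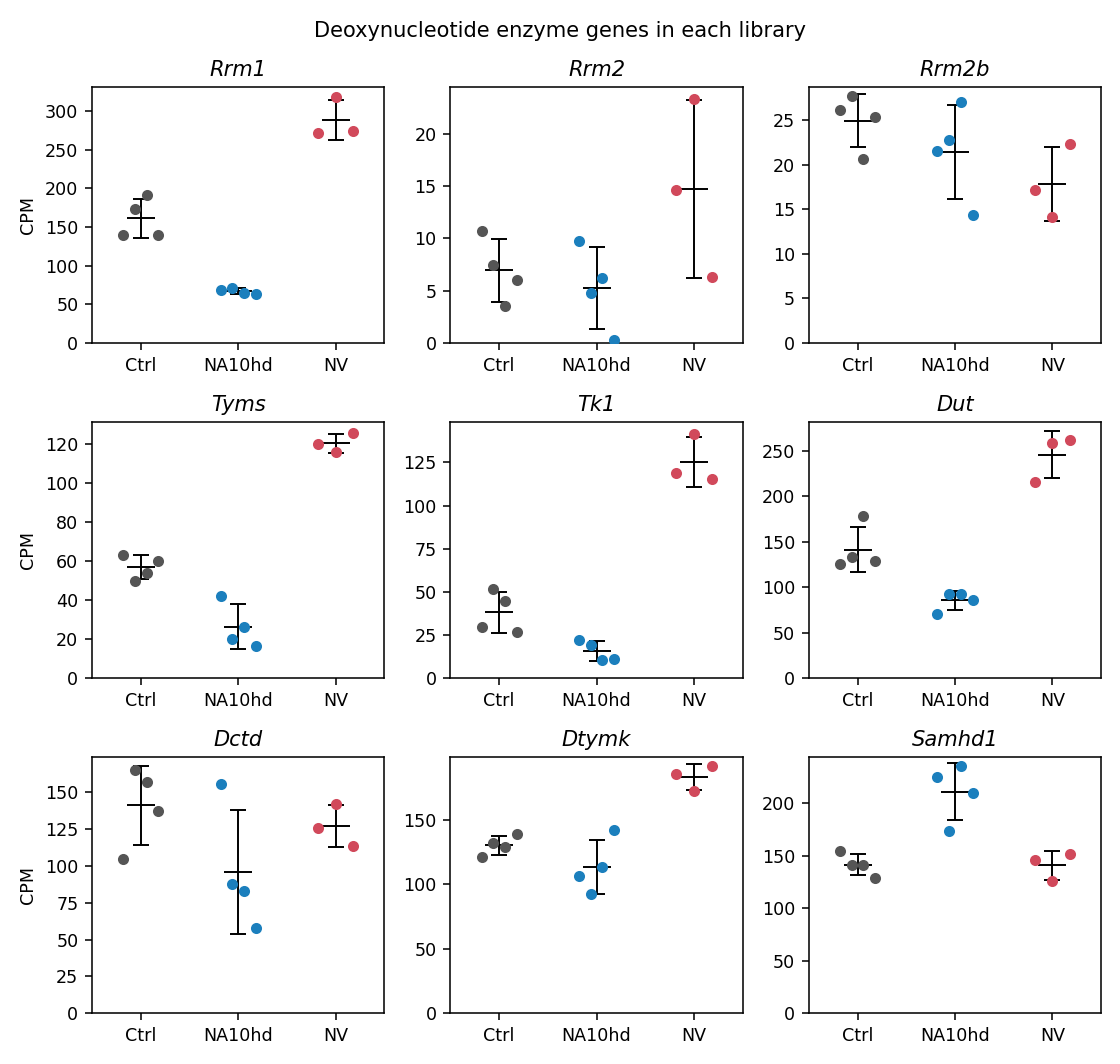
CPM of each of the 9 genes in each library (points), with the mean and SD of the group (Ctrl and NA10hd n = 4, NV n = 3); axes start at 0 and differ between genes. The NA10hd, Ctrl and NV points form 3 separate levels for Rrm1, Tyms, Tk1 and Dut, overlap for Rrm2, Rrm2b and Dctd, and NA10hd points are highest for Samhd1.

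Markers of proliferating cells moved with the genotypes in the same libraries. The summed level of 8 markers (Mki67, Top2a, Pcna, Ccna2, Ccnb1, Birc5, Cdk1, Ccne2) was 521 to 865 CPM in Ctrl, 356 to 445 CPM in NA10hd and 1439 to 1652 CPM in NV libraries, without overlap. In NV against Ctrl, 7 of the 8 were called higher, all but Ccne2, with Mki67 at a log2 fold change of 1.89 (adjusted p = 0.000822) and Top2a at 1.90 (adjusted p = 0.000911). In NA10hd against Ctrl none was called, and 7 of the 8 were lower at an unadjusted p under 0.05, while all 8 were called lower in NA10hd than in NV. Over all genes, 5.26% were lower at that p in NA10hd against Ctrl. Called were 2.55% higher in NV against Ctrl and 2.79% lower in NA10hd than in NV. With 1 library left out, 4 to 7 were called in NV against Ctrl, the lowest without NV replicate 3, and 7 or 8 in NA10hd against NV. Within the control libraries, replicates 2 and 3 had the higher marker sums (865 and 787 CPM) than replicates 1 and 4 (521 and 577 CPM). Replicates 2 and 3 were also the control libraries with both Xist and Y-linked counts, as were all NV libraries. They had the larger totals too (10639180 and 12610189, against 5464815 and 7190197). These differences cannot be told apart within the control libraries. Rrm1, Tk1, Dut and Dctd were also higher in replicates 2 and 3 than in 1 and 4, Tyms was lower, and Rrm2, Rrm2b, Dtymk and Samhd1 were in neither order. The part of cell cycle activity in the differences of the 9 genes was not tested.

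**Figure D4:**
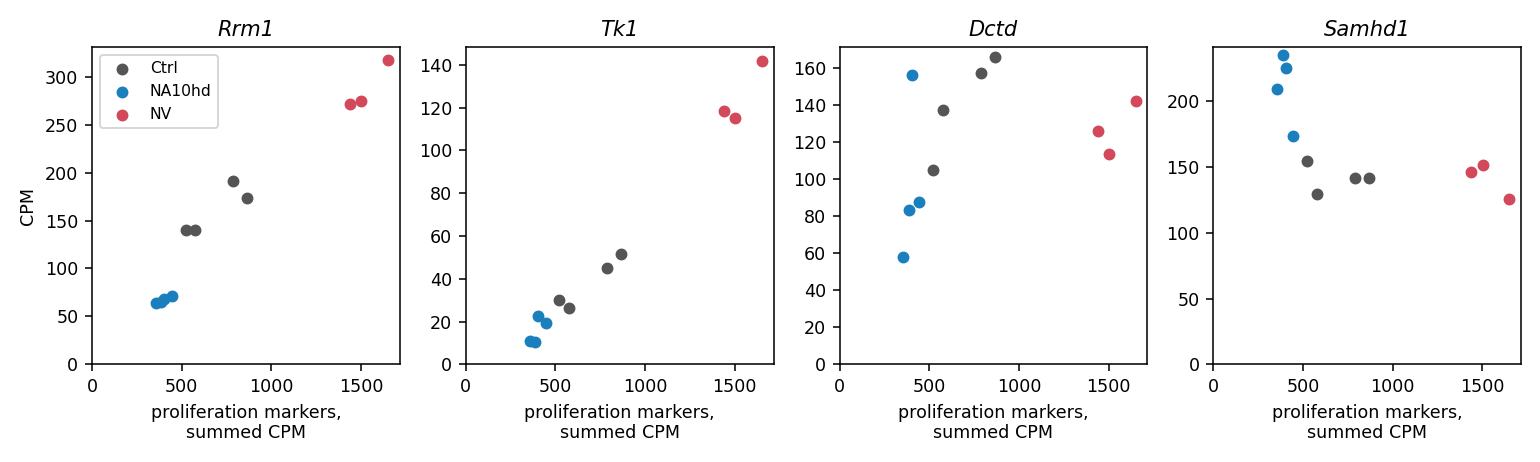
CPM of Rrm1, Tk1, Dctd and Samhd1 (vertical axes, from 0) against the summed CPM of 8 proliferation markers in each of the 11 libraries, coloured by genotype. Rrm1 and Tk1 are low where the sum is 356 to 445 CPM and high where it is 1439 to 1652 CPM, whereas Samhd1 is level between Ctrl and NV.

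The other genes of nucleotide metabolism were read from 6 lists of 60 genes, of which 56 or 57 were tested in each comparison. In NA10hd against Ctrl none was called by edgeR, with 3 higher and 11 lower at an unadjusted p under 0.05 (6.62% and 5.26% of all genes). DESeq2 called 4 there, beside 0.764% higher and 0.603% lower of its genes. In NV against Ctrl, 3 were called higher (2.55% of all genes were) and 1 lower (2.21%). In NA10hd against NV, 8 were called lower (2.79%) and none higher. The median log2 fold change was -0.04, 0.16 and -0.36. These calls rested on single libraries more than those of the 9 genes: leaving out 1 library gave 1 to 6 calls in NV against Ctrl, the lowest without NV replicate 2 or 3, and 1 to 11 in NA10hd against NV, where leaving out NV replicate 3 gave 1 and leaving out NV replicate 1 or 2 gave 2.

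Of the folate cycle that feeds Tyms, Mthfd2, a mitochondrial folate enzyme, was lower in NA10hd than in NV HSC (log2 fold change -2.36, adjusted p = 0.0221). The most abundant uncalled genes of that list, Shmt2 and Mthfd1, had values of 0.26 and 0.47 in NV against Ctrl. Of the salvage kinases, Dck, which phosphorylates deoxycytidine, rose in NV HSC (1.005, adjusted p = 0.00716), with 51.7, 64.2 and 80.7 CPM against 32.0 to 33.2 CPM in Ctrl, and Adk, the adenosine kinase, rose too (0.82, adjusted p = 0.0180). Dck (-1.30), Adk (-1.13) and the purine salvage enzyme Hprt (-0.68) were called lower in NA10hd than in NV, while Aprt and Dguok, the most abundant uncalled genes of the list, had values of 0.44 and 0.14.

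Of the 12 purine and 5 pyrimidine synthesis genes tested, 1 was called in NV HSC: Adss, which commits IMP to AMP, fell (log2 fold change -0.59, adjusted p = 0.0258), and the most abundant uncalled purine genes, Impdh2 and Prps1, had values of 0.13 and 0.14. Gart (-1.90, adjusted p = 0.0173) and Paics (-0.86, adjusted p = 0.0103), both of the purine route, and Ctps, the CTP synthase (-1.84, adjusted p = 0.00731), were lower in NA10hd than in NV HSC. For these 3 genes the NA10hd libraries lay below control as well, without a call: Ctps had 41.3, 54.8, 38.1 and 26.5 CPM in Ctrl and 17.7, 9.31, 9.50 and 14.3 CPM in NA10hd libraries (-1.66, adjusted p = 0.104). Umps and Ctps2, of the pyrimidine route, were uncalled at -0.30 and -0.15 in NA10hd against NV. No gene of nucleotide breakdown and pool cleaning (12 tested, Pnp and Nt5c3 the most abundant) or of the transporters (6 tested, Slc25a36 and Slc29a1 the most abundant) was called in any comparison, with 2 and 0 higher and 1 and 0 lower at an unadjusted p under 0.05 in NV against Ctrl. Over all genes, 9.55% were higher and 9.96% lower at that p in NV against Ctrl.

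**Figure D5:**
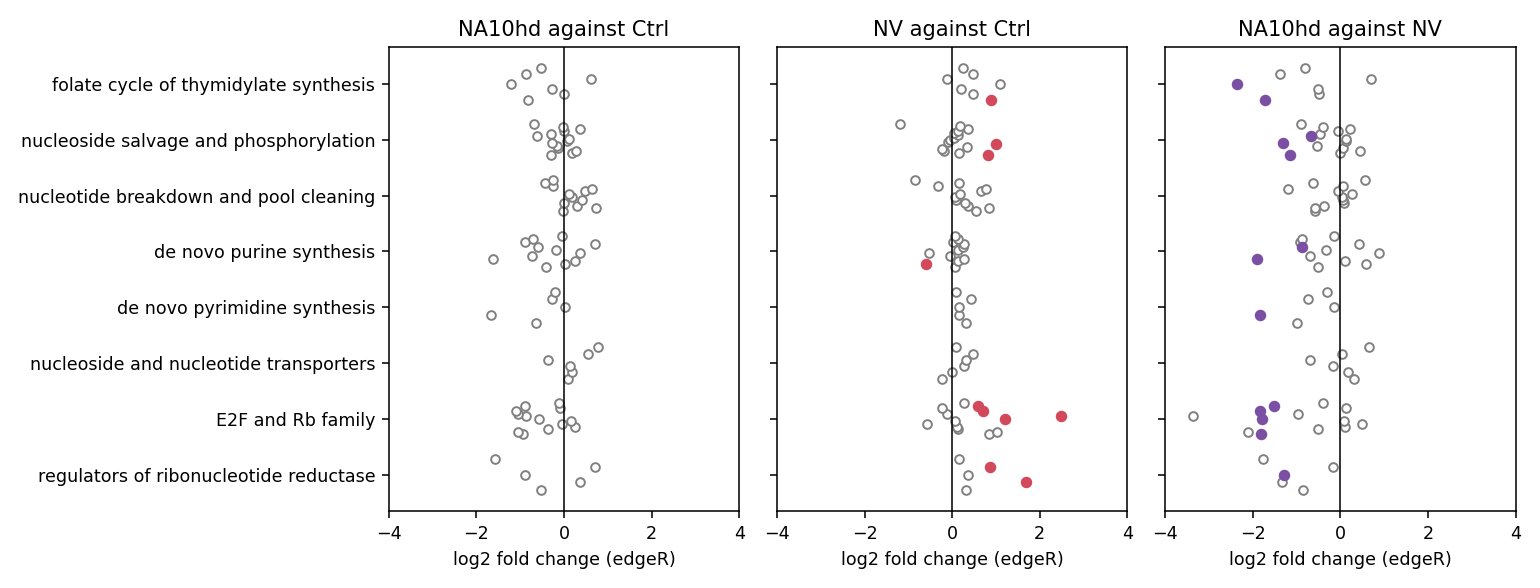
log2 fold change (edgeR) of each tested gene of 8 lists, 1 row per list, in the 3 comparisons; filled points were called and vertical position within a row has no meaning. Filled points are absent in NA10hd against Ctrl, lie mostly right of 0 in NV against Ctrl and all left of 0 in NA10hd against NV.

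Genes that regulate this pathway were read next. For the calls of these and the later lists, the shares over all genes in NV against Ctrl were 2.55% higher and 2.21% lower. Between NA10hd and NV they were 2.79% lower and 2.30% higher. At an unadjusted p under 0.05 in NA10hd against Ctrl, they were 6.62% higher and 5.26% lower. With DESeq2 in NA10hd against Ctrl, 0.764% were called higher and 0.603% lower. Of 13 genes of the E2F and Rb family, 4 were called higher in NV against Ctrl: E2f7 (1.21, adjusted p = 0.0255) and E2f8 (2.49, adjusted p = 0.00132), which act as repressors, Rbl1 (0.71, adjusted p = 0.0233), which encodes p107, and Tfdp1 (0.60, adjusted p = 0.0184), the partner of E2F factors. In NA10hd against NV, 4 were called lower, E2f1 (-1.80), E2f7 (-1.79), Rbl1 (-1.83) and Tfdp1 (-1.4997). Rbl2 and E2f6, the most abundant uncalled genes, had values of -0.24 and 0.07 in NV against Ctrl, and none of the 13 was called in NA10hd against Ctrl (0 higher and 4 lower at an unadjusted p under 0.05, 2 called by DESeq2). With 1 library left out, 1 to 4 were called in NV against Ctrl, with 2 without Ctrl replicate 1 or NV replicate 1 and 1 without NV replicate 2 or 3. In NA10hd against NV it was 2 to 6, with 2 without NA10hd replicate 3 or any NV library. Of 5 regulators of ribonucleotide reductase, Ccnf (1.69, adjusted p = 0.0130), the F-box protein that targets Rrm2 for degradation, and Fzr1 (0.86, adjusted p = 0.00684), an activator of the anaphase-promoting complex, were called higher in NV against Ctrl, and the checkpoint kinase Chek1 (-1.29, adjusted p = 0.0496) was called lower in NA10hd against NV. With 1 library left out, 0 to 2 of the 5 were called in NV against Ctrl, where leaving out NV replicate 2 gave 1 and leaving out NV replicate 3 gave 0, and 0 to 3 in NA10hd against NV, with 0 without NA10hd replicate 1 or 3 or any NV library and 3 without NA10hd replicate 4. Atr and Wee1, uncalled, had values of 0.32 and 0.16 in NV against Ctrl. Fzr1 was also higher in NA10hd against Ctrl, without a call (0.71, adjusted p = 0.260) and without overlap of the libraries.

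Of 15 p53 target genes, read because Rrm2b is p53-inducible, only Gtse1 was called, higher in NV against Ctrl (1.70, adjusted p = 0.00893) and lower in NA10hd against NV (-3.42, adjusted p = 0.00711), the latter call being lost without NV replicate 1 or 2; Gtse1 is named for its expression in the G2 and S phases. Its levels were 11.5 to 22.8 CPM in NV, 4.93 to 6.62 CPM in Ctrl and 0.875 to 2.85 CPM in NA10hd libraries. Sesn1 and Ccng1, the most abundant uncalled genes, had values of -0.13 and -0.36 in NV against Ctrl. Cdkn1a, the cyclin-dependent kinase inhibitor, was uncalled and varied within NA10hd, with 35.9, 11.9, 5.70 and 69.0 CPM. Of 13 interferon response genes, read because Samhd1 is known to respond to interferon in some cells, 5 were called higher in NV against Ctrl, among them Irf7 (1.51), Irf9 (0.63), Mx1 (1.52) and Usp18 (1.43), while Samhd1 stood at -0.01. Usp18 (-1.53) was called lower in NA10hd against NV, where Samhd1 stood at 0.57, and Oasl2 and Ifih1 were uncalled in each comparison. Without NV replicate 2 or 3, 3 of the 13 were called in NV against Ctrl and 1 in NA10hd against NV.

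The sort was checked against marker lists. The HSC markers Kit, Ly6a, Slamf1, Procr, Tek, Hlf and Mecom were detected in every library. Kit, the receptor used in the sort, had 314.4 ± 51.4 CPM (SD, n = 4) in Ctrl, 311.7 ± 105.7 (n = 4) in NA10hd and 292.2 ± 12.1 (n = 3) in NV libraries, and the genotypes overlapped. Lymphoid markers summed to at most 3.42 CPM, and of 6 myeloid markers, Lyz2 gave nearly all of 374 to 554 CPM while Mpo and Ctsg were at 0 in Ctrl and NV. The sums of 5 erythroid markers were highest in NV, with 18.4 to 24.9 CPM in Ctrl, 15.6 to 31.7 CPM in NA10hd and 42.6 to 80.3 CPM in NV, by Klf1 and Epor, and those of 5 endothelial markers were lowest in NV, with 118 to 163, 142 to 271 and 48.2 to 65.4 CPM, while Ctrl and NA10hd overlapped in both. Those of 5 megakaryocyte markers overlapped in all genotypes (307 to 334, 240 to 406 and 267 to 582 CPM), although 2 of the 5 were called higher in NV against Ctrl, with Pf4 at a log2 fold change of 2.91 (adjusted p = 0.000911) and the other at 1.30, and 1 lower (-0.83). Of the endothelial markers, 2 were called lower in NV against Ctrl, Cldn5 (-3.71, adjusted p = 0.00236) and Emcn (-1.45, adjusted p = 0.00306). The part of these cells in the differences of the 9 genes was not tested.

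Genes with profiles most like those of 5 members were found by the mean absolute difference of centred log2 CPM over the 11 libraries, among 12818 genes tested in all comparisons. For Rrm1 these were Cks1b (0.134), Tmem48 (0.189) and Atad2 (0.194), against a median of 0.821 over all genes, and the nearest of the 9 genes was Dut (0.254). For Tyms they were Rbl1 (0.289), Psrc1 (0.291) and Atad2 (0.299), for Samhd1 Tbc1d20 (0.0861), Cxxc5 (0.0917) and Mrps16 (0.109), and for Rrm2b Far1 (0.104), Gm3362 (0.106) and Nedd4 (0.129), of which Gm3362 lies within the Rrm2b gene. For Rrm2 they were 2810408I11Rik (0.376), Gm14038 (0.401) and Plxna4 (0.450), against a median of 0.997. Genes of low spread between libraries, such as Rrm2b and Samhd1, lie nearer to many genes by this measure (medians of 0.450 and 0.443), so values are compared within a gene's own list only.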

How the data were processed

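RNA-Seq of bone marrow HSC from Ctrl (4), NA10hd (4) and NV (3) mice was analysed, 11 libraries grouped by the genotype in their labels. The authors amplified cDNA of sorted cells, made libraries with the Nextera XT kit, and sequenced on a NextSeq500. Their processing notes and methods name HISAT2 for alignment to NCBIM37 and featureCounts for counting. The deposited counts are raw, without normalization or filter, for 37991 Ensembl IDs; versions, annotation release and strand setting are not given in the sources used here. Amplified cDNA without molecular identifiers counts copies, so counts carry amplification error as well as counting error.

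Symbols, positions and exon lengths came from GENCODE of the same build (37205 of the IDs matched, 786 had no symbol). Comparisons used edgeR 4.0.16 in R 4.3.3 (TMM, default filter on low counts, quasi-likelihood test), each on its own libraries, with Benjamini-Hochberg adjustment over all genes tested and calls where adjusted p was below 0.05 and the fold change over 1.5. CPM were counts per 1000000 of the library total times its TMM factor. Ratios of Rrm2 to Rrm2b used exact permutation tests in scipy 1.17.1. Copies of transcripts were searched with blastn 2.17.0, promoters came from a RefSeq table of GRCm38.p6, and figures were drawn with matplotlib 3.10.9.

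The 9 genes and the gene lists were chosen with earlier results of these data known. Named were the 9 genes, each list gene called in any comparison, the 2 uncalled genes of highest mean CPM of each list, and the 3 genes nearest in profile to Rrm1, Rrm2, Rrm2b, Tyms and Samhd1; Cdkn1a was named after its values were seen, and some genes of the lists are counted but not reported by name here. Alternatives were DESeq2 1.42.0, limma-voom (limma 3.58.1), other scalings, no filter, at least 10 counts in every library, all genotypes in 1 fit, a replicate block, glmTreat, no fold threshold, libraries matched for Xist and Y-linked counts, and each library left out in turn. The scripts were tested on simulated counts with known changes. False were 26.4% of DESeq2 calls in NA10hd against NV and 14.7% in NV against Ctrl, against 4.63% and 5.2% with edgeR. The authors' own fold changes and p-values were not used.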

Additional observations from a re-analysis of the deposited data

Results flagged for a closer look

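Of 20 sets of 4 libraries tested for a value that stands apart, 1 was found, where chance gives about 1 in 20. Dut, the dUTPase gene, had 177.8 CPM in Ctrl replicate 3, and the gap to the nearest control library was 0.842 of the range of the group. Without this library, the log2 fold change of Dut in NV against Ctrl was 0.92, beside 0.79 with it. The NV genotype has 3 libraries and was not tested in this way.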

How the results depend on the processing

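Fold changes of the 9 genes were recomputed in 457 alternatives, of which 424 kept the direction and side of the threshold, 24 lost a call, 5 gained one and 4 reversed a value that was not called. Reversed were the log2 fold change of Rrm2, NA10hd against Ctrl (0.000417 without NA10hd replicate 4; -0.848 to 0.000417 over all libraries left out), the log2 fold change of Samhd1, NV against Ctrl (0.0218 with library totals; -0.0690 to 0.0654 with 1 library left out, positive without NV replicate 2 or Ctrl replicate 1), and the log2 ratio of Rrm2 to Rrm2b in NA10hd against Ctrl (0.10 without NA10hd replicate 4; -1.30 to 0.10 over all libraries left out). Of the 9 genes, the number called in NA10hd against Ctrl (1) was 4 with DESeq2 (all lower, as were 0.603% of its genes), and 0 with glmTreat and among libraries with Y-linked counts alone, and 0 to 1 with 1 library left out. In NV against Ctrl (4) it was 2 with glmTreat and 3 to 4 with 1 library left out, and in NA10hd against NV (5) it was 4 to 5. Of the pathway genes, the number called in NA10hd against Ctrl (0) was 4 with DESeq2 and 1 with all genotypes in 1 fit. In NV against Ctrl (4) it was 0 with all genotypes in 1 fit, with glmTreat and among libraries with both Xist and Y-linked counts, and 1 to 6 with 1 library left out. In NA10hd against NV (8) it was 13 with DESeq2, 13 with all genotypes in 1 fit, 2 with glmTreat and 1 to 11 with 1 library left out. The cause was not tested. Of levels per length, 20 of 27 moved by more than 1 SD with the longest transcript as length, and 0 of 27 CPM levels without TMM. At 2 counts in 1 library, Rrm2 had no value under the filter of 10 counts in the NA10hd comparisons. No set of libraries matched for Xist and Y-linked counts exists for NA10hd against NV.

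Same-numbered libraries did not deviate together (correlations -0.0875 to 0.0264), so the numbers do not pair them. With the replicate number as a block, 0 of the 9 genes and 0 pathway genes were called in NA10hd against Ctrl (Rrm1 log2 fold change -1.25, adjusted p = 0.335), 4 and 2 in NV against Ctrl, and 5 of the 9 in NA10hd against NV.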

Other observations

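Samhd1 has a close neighbour whose libraries were ordered differently. Rbl1, which encodes the p107 pocket protein, lies on the same strand of chromosome 2 with 10627 bases between the genes. Its levels were 41.8, 60.4, 49.9 and 60.5 CPM in Ctrl, 29.1, 31.1, 24.02 and 14.3 CPM in NA10hd, and 91.8, 84.5 and 86.3 CPM in NV libraries. Rbl1 was called lower in NA10hd than in NV HSC (log2 fold change -1.83, adjusted p = 0.00376 in edgeR), where Samhd1 stood at 0.57, and higher in NV than in Ctrl HSC (0.71, adjusted p = 0.0233), where Samhd1 stood at -0.01. In all 4 NA10hd libraries Rbl1 lay below every control library and Samhd1 above. The difference between the genes was not tested.

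E2f8, the atypical repressor of E2F targets, had 29.4, 33.6 and 38.1 CPM in NV and 2.86 to 8.20 CPM in Ctrl libraries, while the NA10hd libraries ranged from 0 to 8.35 CPM. The counts of Gm3362, the pseudogene within Rrm2b, ranged from 140 to 279 in Ctrl libraries, from 94 to 280 in those of NA10hd and from 190 to 208 in NV, of the same order as those of Rrm2b itself (101 to 313 over all libraries).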
